A study of Mus musculus with 5 samples.

Results

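Amino acid and peptide transporters of solute carrier (Slc) families 1, 3, 6, 7, 15, 36, 38 and 43 were examined in fetal mouse colon. The members were all array probe sets annotated to a single gene symbol of 1 of these families. The rule found 73 of 22626 probe sets, which read 48 genes in 7 of the 8 families, with 0 probe sets for family 36. Each of 5 embryos at stage E18.5 gave 1 array. The 3 HNF4 null embryos (null_59, null_60 and null_426) were HNF4LoxP/LoxP FoxA3Cre, and the 2 control embryos (CONTROL_406 and CONTROL_421) were HNF4LoxP/+ FoxA3Cre. Controls thus carried the same Cre transgene and a floxed allele of their own, so the comparison sets floxed alleles on both chromosomes against a floxed allele on a single one. The transgene's name refers to Foxa3, which is active in endoderm, the germ layer from which the epithelium but not the muscle, nerves or vessels of the gut wall derives. Values for each gene are given in the order of the embryos named here.

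Protein in the gut is absorbed as single amino acids and as short peptides. Peptides enter absorptive cells through the proton-driven carrier PEPT1, the product of Slc15a1, while amino acids enter through a set of carriers that differ in substrate and in the ion that drives them. Several of these work as pairs, in which a heavy chain from family 3 brings a light chain from family 7 to the membrane. On the basolateral side, exchangers pass amino acids on to the blood. The same families also hold carriers that every dividing cell uses, carriers for taurine and creatine, and those that clear transmitters at nerve endings. HNF4 alpha and gamma are nuclear receptors of the gut epithelium known for regulating genes of absorptive cells.

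The 5 arrays had median deposited intensities from 123.7 to 135.2. CONTROL_421 stood apart by its Gapdh control probe sets, whose 3' to 5' ratio was 1.47, against 0.767 to 0.895 in the other arrays. By limma over all 22626 probe sets, 0.124% passed an adjusted p of 0.05, of which the lower ones were 0.106% and the higher ones 0.0177%. Of the 4 probe sets of Hnf4a, 0 did, and they stood on both sides of 0. The brightest, 1427001_s_at, read 649.8, 746 and 723 in HNF4 null colons, against 945 and 991 in control colons, with a log2 difference (null minus control) of -0.35. The others differed by -0.55, 0.14 and 0.19, of which the first read 344, 348 and 358 in HNF4 null colons, against 639.9 and 442 in control colons. Since the floxed segment is not described, probe sets outside it would check nothing, and the place of each probe set was not examined. These values thus do not show by themselves that Hnf4a RNA was lost. Hnf4g differed by 0.19 by 1450518_at and by -0.29 by the dimmer 1422182_at, neither past the adjusted threshold. Colonic epithelium was present in every array: the 7 listed epithelial markers (Epcam, Cdh1, Krt8, Krt18, Krt19, Cdx2 and Vil1) were measured, and their summed intensity was 10749 to 13822 in HNF4 null colons, against 13954 to 14319 in control colons. For 4 of 5 absorptive markers the sum was 414 to 445 in HNF4 null colons, against 654 to 668 in control colons, without overlap. Singly, Car1 and Krt20 had all null arrays below both control arrays, as did 9.64% of all probe sets. Fabp2 and Slc26a3 overlapped between groups, with differences of -0.39 and -0.35. In bulk tissue, fewer cells of a type and less RNA per cell cannot be told apart, and the part of these markers in the values below was not tested.

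Of the 73 transporter probe sets, 0 passed limma's adjusted p of 0.05, beside the 0.124% of all probe sets. At limma's unadjusted p under 0.05, 9 of the 73 differed (12.3%), 7 lower and 2 higher in HNF4 null colons, beside 7.15% of all probe sets, of which 4.33% were lower and 2.82% higher. The lower ones belonged to Slc15a1, Slc6a14, Slc7a9, Slc3a1, Slc7a8, Slc38a10 and Slc1a3, and the higher ones to Slc7a5 and Slc1a2. Most of them were dim. With probe sets below the array median removed, 2 of 31 were at limma's unadjusted p under 0.05, those of Slc7a9 and Slc6a14. The share of all such brighter probe sets was not counted, so an excess among brighter transporter probe sets is not shown. In deposited intensities, all null arrays lay below both control arrays for 13 probe sets and above them for 14, together 37.0% beside 24.2% of all probe sets. After normalisation between arrays this was 21 of the 73, or 28.8%, beside 23.7%. By each gene's brightest probe set the median log2 difference was 0.03 over the 48 genes and 0.02 over all 12393 named genes, and the middle 50% of transporter genes lay between -0.21 and 0.21. By sign, 23 genes had a negative and 25 a positive difference, from -1.62 for Slc15a1 to 0.65 for Slc1a2.

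**Figure D1:**
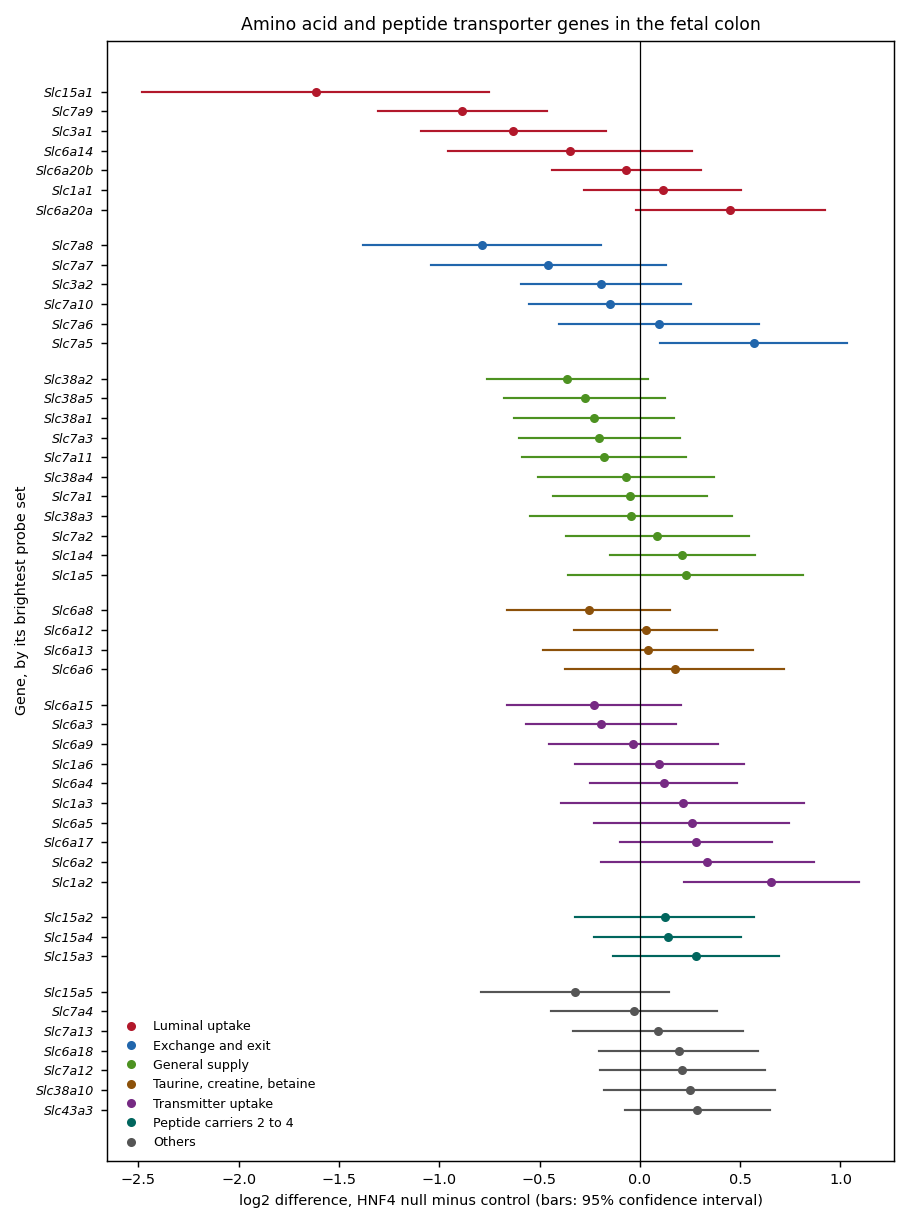
Log2 difference of HNF4 null minus control colons (horizontal axis) for the 48 transporter genes, each by its brightest probe set, with limma's 95% confidence interval, coloured and grouped by role. Slc15a1, Slc7a9 and Slc3a1 in the luminal group and Slc7a8 among the exchangers have intervals below 0, and Slc7a5 and Slc1a2 have intervals above 0.

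Carriers of luminal uptake, a group drawn up with earlier results of these data known, held the largest negative differences. The counts for this group are thus a description and not a test. Of 7 genes read by 10 probe sets, 5 genes had a negative and 2 a positive difference, with a median of -0.35, and 4 probe sets had limma's unadjusted p under 0.05 with a lower value, as did 4.33% of all probe sets. The median stayed negative in all 13 alternative settings, from -0.65 without null_426 to -0.12 without null_60. Of the 10 probe sets, 7 lay below the median of all probe sets, and removal of dim ones left 2 genes. With the values as deposited and without CONTROL_406, 4 genes were negative and 3 positive. Slc15a1, the intestinal peptide carrier, read 39.5, 65.6 and 31.6 in HNF4 null colons, against 284 and 89.0 in control colons. All null arrays lay below both control arrays, but the control arrays differed by more from each other than CONTROL_421 did from null_60. The log2 difference was -1.62 ± 0.38 (SE, adjusted p = 0.344), with a 95% interval of -2.48 to -0.75. It was -2.30 without CONTROL_421 and -0.91 without CONTROL_406, so its size rested on which control array was used. Each of these fits kept a single control array and took its spread from the null group.

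Slc7a9 and Slc3a1 encode the light and the heavy chain of a single luminal carrier, b0,+AT with rBAT, which takes up cystine and basic amino acids and is defective in human cystinuria. Slc7a9 read 108, 109.9 and 151 in HNF4 null colons, against 261 and 214 in control colons. These groups were apart, with the highest null array, null_426, well under the lower control array. Its difference was -0.89 ± 0.19 (SE, adjusted p = 0.243) and lay between -1.03 and -0.78 with any 1 array left out. Slc3a1 had intensities of 61.7, 70.7 and 102 in HNF4 null colons, against 111 and 136 in control colons. The null arrays were again lower, null_426 being nearest to the control arrays. Its difference was -0.63 ± 0.20 (SE, adjusted p = 0.591), between -0.79 without CONTROL_406 and -0.46 without CONTROL_421. In both genes null_59 and null_60 were the lowest arrays.

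Slc6a14 encodes ATB0,+, a sodium- and chloride-driven carrier of neutral and basic amino acids found on the luminal side of the distal gut. Its probe set 1420504_at read 207, 330.3 and 217 in HNF4 null colons, against 497 and 525 in control colons. Here the groups did not overlap and the control arrays were close to each other. The difference was -0.99 ± 0.21 (SE, adjusted p = 0.241), and it stayed between -1.17 and -0.89 with any 1 array left out. The brighter probe set of the same gene, 1420503_at, gave another picture, with 617, 509 and 924 in HNF4 null colons, against 918 and 890.3 in control colons. By this one null_426 lay above both control arrays while null_59 and null_60 lay below them, and the difference was -0.35 ± 0.27 (SE, adjusted p = 0.802), -0.12 without null_60 and -0.65 without null_426. Both probe sets put null_59 and null_60 below the controls, and they disagreed on null_426.

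**Figure D2:**
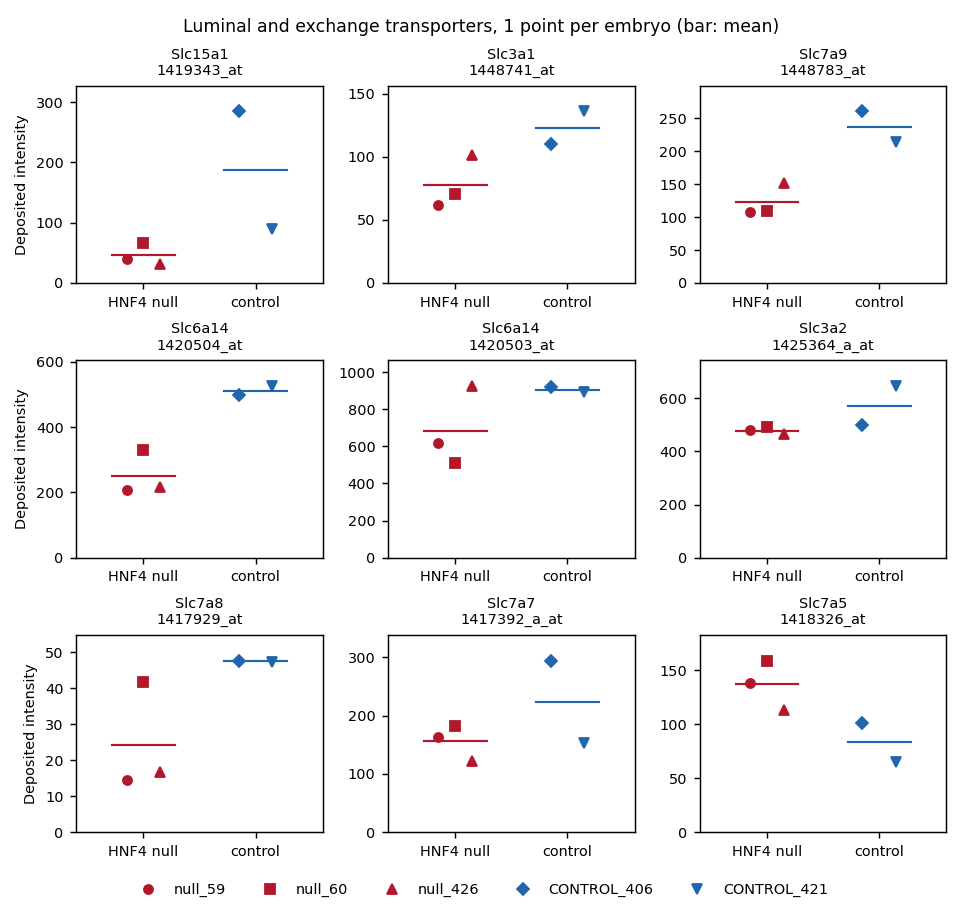
Deposited intensity (vertical axis, linear from 0) of 9 probe sets of luminal and exchange transporters, with 1 point for each embryo by group (horizontal axis) and a bar at the group mean. Groups overlap only for Slc7a7 and for probe set 1420503_at of Slc6a14, and Slc7a9 and probe set 1420504_at of Slc6a14 show clear gaps. CONTROL_406 alone is high for Slc15a1 and Slc7a7, and null_60 reads 41.6 for Slc7a8, near both control arrays.

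The remaining luminal genes showed no such pattern. Slc6a20a, a carrier of proline and other imino acids, read 95.2, 104 and 91.5 in HNF4 null colons, against 49.7 and 79.0 in control colons. All null arrays were above both control arrays, and CONTROL_406 was the lowest. The difference was 0.45 ± 0.21 (SE, adjusted p = 0.712), 0.75 without CONTROL_421 and 0.14 without CONTROL_406. Its relative Slc6a20b read 25.2, 27.5 and 25.8 in HNF4 null colons, against 31.4 and 20.3 in control colons, and the groups overlapped (-0.07 ± 0.17 (SE, adjusted p = 0.939)). Slc1a1, the glutamate carrier EAAT3 of gut and kidney, was read by 3 probe sets with differences of 0.11, -0.03 and -0.10, each with overlapping groups. By the brightest of them it read 75.0, 71.2 and 99.0 in HNF4 null colons, against 77.3 and 61.8 in control colons. Of 25 listed gut transporters, 21 were measured, and Slc6a19, Slc36a1, Slc43a1 and Slc43a2 were not analysed here.

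Promoter windows from RefSeq (build GRCm38.p6, 250 bases before to 50 after a start site) were searched on both strands for CAAAGTCCA, a sequence known to be bound by HNF4 and for its looser form CAAAGTNCA, which includes it. A palindromic HNF1 sequence was searched as well. Windows were found for 32 of the 48 genes, 51 in all. CAAAGTCCA lay in 1 of the 51, that of Slc3a1, and in 156 of all 32851 windows (0.475%). Its looser form lay in the same single transporter window and in 1.41% of all windows, while the HNF1 sequence lay in 0 of the 51 and in 3 of all. In the Slc3a1 window the match began 39 bases before the start site, on the strand of the gene. Windows of the 3 luminal genes with the lowest values by their brightest probe set are shown 5′ to 3′ in the direction of the gene, with the match in capitals.
Slc3a1, chr17:85028097-85028396, plus strand: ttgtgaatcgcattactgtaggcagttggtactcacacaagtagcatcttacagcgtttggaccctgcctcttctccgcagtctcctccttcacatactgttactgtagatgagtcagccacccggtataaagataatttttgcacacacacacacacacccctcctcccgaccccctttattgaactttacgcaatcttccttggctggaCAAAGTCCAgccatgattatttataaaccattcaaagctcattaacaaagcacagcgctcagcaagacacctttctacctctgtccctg
Slc7a9, chr7:35448842-35449141, plus strand: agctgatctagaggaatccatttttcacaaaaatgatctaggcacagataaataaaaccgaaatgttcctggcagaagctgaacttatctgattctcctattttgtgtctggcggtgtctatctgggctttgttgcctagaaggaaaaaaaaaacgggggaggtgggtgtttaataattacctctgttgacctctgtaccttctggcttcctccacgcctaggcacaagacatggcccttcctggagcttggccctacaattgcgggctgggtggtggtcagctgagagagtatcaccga
Slc15a1, chr14:121505205-121505504, minus strand: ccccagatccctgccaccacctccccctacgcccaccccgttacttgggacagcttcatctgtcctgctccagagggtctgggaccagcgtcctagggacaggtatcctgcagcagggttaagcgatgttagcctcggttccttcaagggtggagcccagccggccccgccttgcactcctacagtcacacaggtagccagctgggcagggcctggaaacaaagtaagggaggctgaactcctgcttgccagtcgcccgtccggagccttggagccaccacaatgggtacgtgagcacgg
The Slc3a1 window is the one with the match, that of Slc7a9, the partner chain, holds 0 matches, and so does that of Slc15a1. A match is a stretch of letters and was not tested for binding, and these windows do not cover distant elements.

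Genes grouped as exchangers stood on both sides of 0, and none passed the adjusted threshold. The group includes Slc7a10, which is best known from brain. Of 6 genes, 4 had a negative and 2 a positive difference, with a median of -0.17. Without CONTROL_421 the median was -0.03, with 3 genes on each side. Slc3a2 encodes 4F2hc (CD98), the heavy chain shared by the light chains that follow, and read 479.6, 490.4 and 465 in HNF4 null colons, against 498 and 646 in control colons. Its difference was -0.19 ± 0.18 (SE, adjusted p = 0.829), or -0.40 without CONTROL_406 and 0.0081 without CONTROL_421. Slc7a8, the light chain LAT2 for neutral amino acids, read 14.6, 41.6 and 16.7 in HNF4 null colons, against 47.5 and 47.2 in control colons. The null arrays lay below both controls, null_59 and null_426 far below and null_60 only just. Its difference was -0.79 ± 0.26 (SE, adjusted p = 0.600), and -1.09 without null_60. The Slc7a8 probe set was dim, below the median of all probe sets, and its difference ran from -1.19 to -0.39 over the alternative settings. Slc7a7, the light chain y+LAT1 for basic amino acids that is defective in lysinuric protein intolerance, read 163, 183 and 122 in HNF4 null colons, against 294 and 153 in control colons. CONTROL_406 was high and CONTROL_421 lay among the null arrays, and the difference was -0.46 ± 0.26 (SE, adjusted p = 0.760). It was -0.85 without CONTROL_421 and -0.06 without CONTROL_406.

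Slc7a5, the light chain LAT1 that supplies large neutral amino acids to dividing cells, read higher, although it did not pass the adjusted threshold. Its intensities were 139, 159 and 113 in HNF4 null colons, against 101 and 65.4 in control colons. Every null array was above both control arrays, with CONTROL_421 the lowest. Its difference was 0.57 ± 0.21 (SE, adjusted p = 0.642), with a 95% interval of 0.10 to 1.03, and 0.35 without CONTROL_421. Slc7a6, the light chain y+LAT2, differed by 0.10 and 0.17 by its 2 probe sets, and Slc7a10, the light chain asc-1 best known from brain, by -0.15. The intervals of Slc7a8 and Slc7a5 thus lay on opposite sides of 0, and the difference between the genes was not tested.

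Carriers that supply cells in general stood close to 0. Of the 16 probe sets of 11 such genes 0 passed limma's adjusted threshold and 0 were at an unadjusted p under 0.05, with differences from -0.36 to 0.33 and a median over genes of -0.07, or -0.23 without CONTROL_406 and -0.03 without CONTROL_421. Slc38a2, the sodium-driven neutral carrier SNAT2, stood lowest and read 389, 549 and 412 in HNF4 null colons, against 608 and 580.0 in control colons. The groups did not overlap and null_60 was the nearest null array to the controls (-0.36 ± 0.18 (SE, adjusted p = 0.728)). Its neighbour on chromosome 15, Slc38a1, encodes the related carrier SNAT1. Slc38a1 read 298, 294 and 313 in HNF4 null colons, against 323 and 408 in control colons. These intensities did not overlap between groups, but the values after normalisation between arrays did. The difference was -0.23 ± 0.18 (SE, adjusted p = 0.802), or -0.42 without CONTROL_406 and -0.04 without CONTROL_421. Slc38a4, the next gene along in RefSeq's order, had overlapping groups and a difference of -0.07. Slc38a5, the glutamine carrier SNAT5, read 24.0, 34.4 and 25.4 in HNF4 null colons, against 33.0 and 34.9 in control colons, with a difference of -0.27.

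The alanine, serine and cysteine carriers of family 1 were on the other side of 0. Slc1a4, which encodes ASCT1, had positive differences by its 3 probe sets, 0.21, 0.33 and 0.11, and by the brightest it read 149.6, 141 and 165 in HNF4 null colons, against 131 and 119 in control colons. Slc1a5, which encodes the glutamine carrier ASCT2, read 309, 266 and 162 in HNF4 null colons, against 227 and 171 in control colons. Its spread among null arrays was wider than the distance between the groups, and the difference of 0.23 ± 0.26 (SE, adjusted p = 0.863) ranged from 0.03 without null_59 to 0.50 without null_426. By their brightest probe sets, all 6 genes of family 1 had a positive difference, from 0.10 to 0.65, also with the values as deposited and with median centring, while 2 of the 6 were negative without CONTROL_406. The basic amino acid carrier gene Slc7a1 differed by -0.05, and the cystine and glutamate exchanger gene Slc7a11, whose product feeds glutathione synthesis, by -0.18, each with overlapping groups. For Slc7a11 this was -0.32 without CONTROL_406 and -0.03 without CONTROL_421. The basic amino acid carrier genes Slc7a2 and Slc7a3 and the glutamine carrier gene Slc38a3 (SNAT3) differed by 0.09, -0.20 and -0.04 by their brightest probe sets, again with overlap.

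Taurine, creatine and betaine carriers were also near 0. Slc6a6, the taurine carrier, averaged 769 ± 173 (SD, n = 3) in HNF4 null colons and 707 ± 85.6 (SD, n = 2) in control colons by its brightest probe set, a difference of 0.17 ± 0.24 (SE, adjusted p = 0.888), and its other 2 probe sets differed by -0.11 and 0.22. Slc6a8, the creatine carrier, read 407, 342 and 408 in HNF4 null colons, against 523 and 429.9 in control colons by the brighter of 2 probe sets. Null arrays were below both controls by either probe set, with differences of -0.26 ± 0.18 (SE, adjusted p = 0.792) and -0.18 ± 0.17 (SE, adjusted p = 0.834). The adjacent genes Slc6a12 and Slc6a13 on chromosome 6, which encode carriers of betaine and of GABA and taurine, differed by 0.03 and 0.04.

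The group named for transmitter uptake is loose and also holds carriers of neutral amino acids, such as Slc6a17. In it, Slc1a2 had the largest positive difference of all members. It encodes the glutamate carrier GLT-1, best known from astrocytes, and read 73.3, 67.4 and 90.7 in HNF4 null colons, against 33.5 and 47.2 in control colons. The null arrays were all above both controls. The difference was 0.65 ± 0.19 (SE, adjusted p = 0.539), 0.42 without CONTROL_406 and 0.88 without CONTROL_421. Slc1a3, the glial glutamate carrier GLAST, had 3 probe sets with differences of 0.21, 0.06 and -0.64. The last read -12.1, -7.93 and 3.16 in HNF4 null colons, against 8.49 and 10.7 in control colons, at or under the level where the deposited values cross 0, and its difference moved to -0.20 with a pseudocount of 64 and to -2.86 with a pseudocount of 1. The other 8 genes of this group lay between -0.23 for Slc6a15 and 0.34 for the noradrenaline carrier gene Slc6a2, with the serotonin carrier gene Slc6a4, also used by gut epithelium, at 0.12. Within that range the dopamine carrier gene Slc6a3 differed by -0.19, the glycine carrier genes Slc6a9 and Slc6a5 by -0.03 and 0.26 and the vesicular neutral carrier gene Slc6a17 by 0.28. For 6 of 8 listed markers of enteric neurons and glia the summed intensity was 905 to 1167 in HNF4 null colons, against 838 to 956 in control colons, with null_426 highest, and their part in these values was not tested.

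Of the other 4 peptide carrier genes of family 15, 3 had a positive and 1 a negative difference by their brightest probe sets. Slc15a2, the kidney-type peptide carrier PEPT2, differed by 0.12 and 0.18 by its 2 probe sets. Slc15a3 and Slc15a4, which encode lysosomal carriers of peptides and histidine known from immune cells, differed by 0.28 and 0.14. Slc15a3 read 199, 199.7 and 233 in HNF4 null colons, against 148 and 192 in control colons. All null arrays were above both controls in these intensities, but the groups overlapped after normalisation between arrays. Its difference was 0.28 ± 0.18 (SE, adjusted p = 0.780), or 0.47 without CONTROL_421 and 0.0839 without CONTROL_406. Slc15a5, which is little studied, was dim, with 11.6, 6.94 and 8.18 in HNF4 null colons, against 10.4 and 17.8 in control colons (-0.32 ± 0.21 (SE, adjusted p = 0.780)), and -0.61 without CONTROL_406 and -0.05 without CONTROL_421. Slc43a3, which encodes a purine base carrier and was the single member of family 43, read 96.3, 91.4 and 90.6 in HNF4 null colons, against 74.5 and 63.1 in control colons. Its groups did not overlap (0.29 ± 0.16 (SE, adjusted p = 0.759)). Of the members without a settled place in the gut, Slc7a4 differed by -0.03 by its brightest probe set, and the kidney genes Slc6a18, Slc7a12 and Slc7a13 by 0.19, 0.21 and 0.09.

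Probe sets of 1 gene did not always share a sign. Of 14 genes read by several probe sets, 7 had differences on both sides of 0. Differences smaller than their SE can fall on either side, as for Slc6a9 with -0.03 ± 0.19 and 0.10 ± 0.17 (SE). Such a split is not by itself a disagreement, and its share over all genes of the array was not counted. Slc38a10, a carrier of glutamine, glutamate and related amino acids, was read by 7 probe sets, 5 with a positive difference of up to 0.25 and 2 with a negative one. Its dimmest, 1434616_at, read 47.4, 44.6 and 44.1 in HNF4 null colons, against 54.6 and 88.0 in control colons. The null arrays lay together and below both controls, but CONTROL_421 was well above CONTROL_406, and the difference of -0.56 ± 0.21 (SE, adjusted p = 0.648) was -0.88 without CONTROL_406 and -0.23 without CONTROL_421. Probe sets whose names end in x_at or s_at may bind transcripts of other genes too, and 2 of the 7 are of the x_at type, with differences of 0.25 and 0.19.

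**Figure D3:**
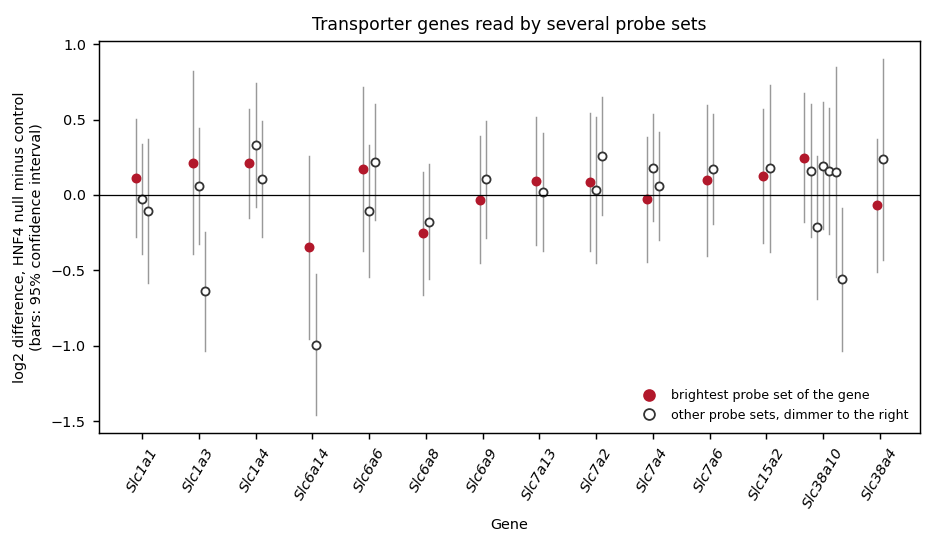
Log2 difference of HNF4 null minus control colons (vertical axis) for the 14 transporter genes read by several probe sets (horizontal axis), with limma's 95% confidence interval. Filled points are the brightest probe set of each gene. For Slc6a14 the dimmer probe set lies at -0.99 and the brighter at -0.35, and 1 dim probe set each of Slc1a3 and Slc38a10 lies well below the others.

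The 9 probe sets at an unadjusted p under 0.05 kept their direction whichever array was left out. All 9 had the null arrays on the same side of both control arrays, so leaving out 1 array could hardly turn the sign. Their differences moved most for Slc15a1, from -2.30 without CONTROL_421 to -0.91 without CONTROL_406. Those of Slc7a9 and of probe set 1420504_at of Slc6a14 moved least in proportion. Between 7 and 9 transporter probe sets were at an unadjusted p under 0.05 with 1 array left out, and 0 passed the adjusted threshold in any of these 5 fits.

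**Figure D4:**
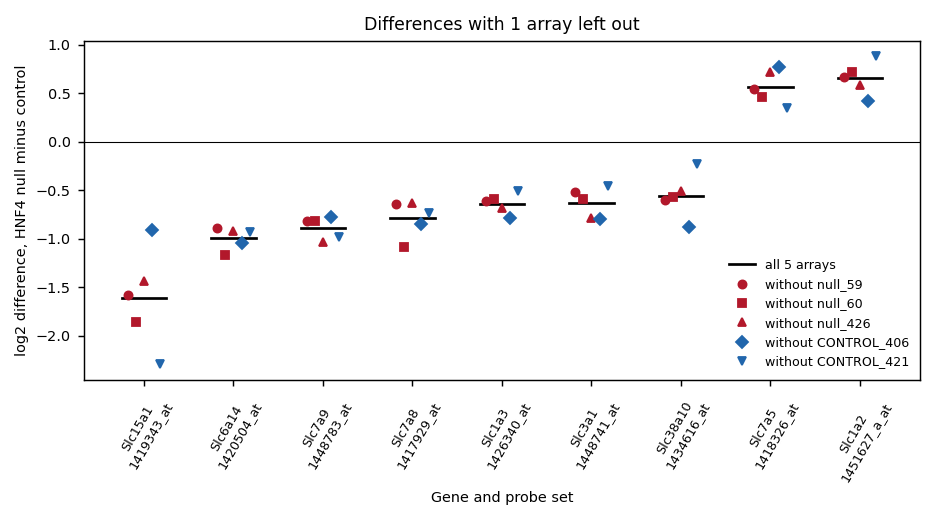
Log2 difference of HNF4 null minus control colons (vertical axis) for the 9 transporter probe sets at an unadjusted p under 0.05 (horizontal axis), over all 5 arrays (line) and with each array left out in turn (points). Slc15a1 runs from -2.30 to -0.91 depending on the control array left out, while Slc7a9 stays between -1.03 and -0.78.

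Peptidases and membrane partners of the transporters were followed as a separate list, drawn up with earlier results of these data known. Of its 18 genes 12 were measured, by 17 probe sets, of which 8 were lower and 0 higher at an unadjusted p under 0.05, beside 4.33% lower and 2.82% higher among all probe sets. The adjusted threshold was passed by 1 of the 17, beside 0.124% of all. That was Mep1b, a subunit of the brush border protease meprin, which read 33.5, 33.5 and 41.0 in HNF4 null colons, against 137 and 117 in control colons, and differed by -1.53 (adjusted p = 0.0103). The other meprin gene Mep1a differed by -0.64 and the brush border aminopeptidase gene Anpep by -0.68. Cndp2, a cytosolic dipeptidase gene, differed by -1.02, and the scaffold gene Slc9a3r1, whose product NHERF1 anchors brush border transporters, by -0.47. In each of these 5 genes the null arrays were all under the lower control array, which held for 9.64% of all probe sets. The other 7 measured genes of the list had overlapping groups. Among them Pdzk1, another scaffold gene of brush border transporters, differed by 0.29, and Cltrn, whose product collectrin brings carriers of family 6 to the membrane, by -0.06. Pepd, which encodes prolidase, differed by -0.23, and the peptidase genes Dpp4, Enpep, Dpep1 and Lap3 had differences from -0.13 to 0.08. The list's median over genes was -0.18, beside -0.35 for the luminal transporters and 0.02 for all named genes. It ran from -0.33 without CONTROL_421 to -0.06 without null_426.

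Genes that respond to amino acid shortage, listed with earlier results of these data known, were set beside the transporters. All 15 were measured, by 31 probe sets, with 1 lower and 2 higher at an unadjusted p under 0.05, beside 4.33% and 2.82% of all probe sets, and 0 past limma's adjusted threshold. Their median was 0.11, which ranged from 0.03 with median centring to 0.25 without CONTROL_421. All null arrays lay above both controls for 12 of the 31 (38.7%), beside 14.6% of all probe sets. By their brightest probe sets, which the next values use, 0 genes of the list were higher at limma's unadjusted p under 0.05. Asns, the asparagine synthetase gene, read 491, 454 and 424 in HNF4 null colons, against 365 and 351 in control colons (0.36). Chac1, a glutathione-degrading enzyme gene, differed by 0.35, and Phgdh, a gene of serine synthesis, by 0.42. Atf4, which encodes the transcription factor of this response, differed by 0.13 with overlapping groups, and the transcription factor gene Cebpb by -0.58.

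All other Slc genes were read by 345 probe sets. Of these, 9.86% were at an unadjusted p under 0.05, 24 lower and 10 higher, and 1 passed the adjusted threshold, beside 12.3% and 0 among the amino acid and peptide transporters. Their median over 213 genes was 0.00081. Kidney tissue expresses Slc3a1, Slc7a9 and Slc7a8 strongly, and the sum of the kidney markers Umod, Slc12a1, Slc34a1 and Aqp2 was 481 to 557 in HNF4 null colons, against 428 to 473 in control colons. Their part in the values of these 3 transporters was not tested. Smooth muscle markers (Acta2, Myh11, Tagln and Des) summed to 10158 to 11362 in HNF4 null colons, against 8358 to 10129 in control colons, with CONTROL_421 lowest.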

How the data were processed

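Biotin-labelled total RNA of 5 fetal colons was hybridised to 1 array each by the Affymetrix procedure, per the labels' protocols. The deposited values are 1 linear intensity per probe set and array. The probe summary, background step and scaling are not given in the sources used here, and 196 values lay below 0. Of 22690 probe sets, 64 control probe sets were left out. A platform annotation of 2016 gave 1 symbol for 20380 of the remaining 22626, several for 691 and none for 1555. All 73 member probe sets matched RefSeq (GRCm38.p6) by gene ID, with 0 symbols changed, and 0 probe sets with several symbols named a gene of these families.

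Values below 0 were set to 0, log2(intensity + 16) was taken and, since array medians spread by 0.114, arrays were quantile normalised. No dim probe set was removed, although 42 of the 73 lay below the median of all probe sets. Differences are null minus control on this log2 scale, which understates those of dim genes. The test was two-sided, by limma 3.58.1 (R 4.3.3) with lmFit and eBayes and no covariates, adjusted by Benjamini-Hochberg over all 22626 probe sets at 0.05. Intervals are 95%. The number of arrays limits the precision. In simulations of this design on 22626 probe sets, 43.7% of 2-fold and 98.4% of 4-fold changes passed, and 5.14% of calls were false. Whether these shares hold for dim probe sets, or where control arrays differ as widely as for Slc15a1, was not tested. By limma, Slc15a1 did not pass (adjusted p = 0.344), with mean deposited intensities of 45.6 in HNF4 null and 187 in control colons. The simulations thus do not show that a large change in a dim transporter would have passed.

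Members, lists, roles and motifs were chosen with earlier results of these data known. Values are given for members at an unadjusted p under 0.05, for 25 listed gut transporters and for the extremes of each family. Other genes named were chosen after their values were seen. Alternatives were 2 other scalings, 2 pseudocounts, a filter on dim probe sets, 2 variance priors, array weights, gene values averaged over probe sets and each array left out.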

Additional observations from a re-analysis of the deposited data

How the results depend on the processing

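No member passed the adjusted threshold in any of the 13 alternatives run on probe sets, and by limma 9 of 73 were at an unadjusted p under 0.05, with 2 of the 31 left after removal of dim probe sets, and 7 to 9 with 1 array left out. That count was added after seeing the data and was 9 to 12 in the other settings. Over all probe sets the 28 past the threshold became 14 with a pseudocount of 1, 17 without dim probe sets, 45 with array weights and between 8 (without null_60) and 104 (without CONTROL_406) with 1 array left out, against 18 without CONTROL_421. The median of member genes moved by less than its spread of 0.07 between null arrays (SD), between -0.03 and 0.06. Of all 73 member probe sets, 45 kept their sign in every alternative they were tested in, and the other 28 differed by at most 0.24 in size. Those beyond the 28 probe sets of the naming rule were added after seeing the data. With some array left out, 61 of the 73 differences moved by over 1.5 times or crossed 0, and 47 did so without CONTROL_421. With the values as deposited, the sign turned for Slc1a1 1460386_a_at (0.073), Slc6a20b 1422899_at (0.022), Slc7a1 1421533_at (0.021) and Slc38a4 1428111_at (0.025). With median centring, the sign turned for Slc1a1 1460386_a_at (0.027) and Slc6a12 1449382_at (-0.022). With array weights, the sign turned for Slc1a1 1460386_a_at (0.052), Slc1a1 1448299_at (0.0023), Slc6a12 1449382_at (-0.019), Slc6a13 1424338_at (-0.12), Slc6a6 1421346_a_at (0.045), Slc7a1 1421533_at (0.021), Slc7a13 1449301_at (-0.039), Slc7a2 1450703_at (-0.010), Slc7a4 1436776_x_at (-0.0038) and Slc38a3 1418706_at (0.086). With 1 array left out, the differences that crossed 0 ran as follows: Slc15a2 1417600_at -0.23 to 0.58, Slc1a1 1448299_at -0.41 to 0.20, Slc1a1 1460386_a_at -0.091 to 0.019, Slc1a3 1426341_at -0.24 to 0.66, Slc1a3 1452031_at -0.030 to 0.14, Slc1a4 1456003_a_at -0.011 to 0.22 and Slc1a6 1418933_at -0.067 to 0.26. Further ranges were Slc38a10 1427294_a_at -0.084 to 0.40, Slc38a10 1427295_at -0.28 to 0.58, Slc38a3 1418706_at -0.23 to 0.15, Slc38a4 1428111_at -0.33 to 0.19, Slc38a4 1448889_at -0.16 to 0.63, Slc3a2 1425364_a_at -0.40 to 0.0081 and Slc6a12 1449382_at -0.0066 to 0.069. Others were Slc6a13 1424338_at -0.18 to 0.21, Slc6a20b 1422899_at -0.19 to 0.057, Slc6a6 1420148_at -0.013 to 0.40, Slc6a6 1421346_a_at -0.27 to 0.062, Slc6a9 1431812_a_at -0.15 to 0.078, Slc7a1 1421533_at -0.13 to 0.035 and Slc7a13 1431740_at -0.043 to 0.19. The rest were Slc7a13 1449301_at -0.13 to 0.17, Slc7a2 1422648_at -0.19 to 0.25, Slc7a2 1450703_at -0.17 to 0.34, Slc7a3 1417022_at -0.41 to 0.0056, Slc7a4 1426068_at -0.24 to 0.18 and Slc7a6 1433467_at -0.19 to 0.38. The cause of these turns of sign was not tested. No paired analysis was possible because the labels give the groups no shared replicate numbers. A lone control array was taken to have the spread of the null group. The signal over background of the dim probe sets is unknown, since no detection calls were used.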
